A study of Homo sapiens with 28 samples.

Results

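The 52 genes described here drive or mark the cell division cycle in U937, a human myeloid line grown from a histiocytic lymphoma. They were taken by symbol from the 56809 rows of the deposited gene tables, and all 52 were among the 18624 genes with enough reads to be tested. By role they comprise 4 G1 cyclins and their kinases, 4 inhibitors of cyclin-dependent kinases, 7 genes of G1/S control, 11 of origin licensing and firing, 3 of nucleotide supply, 13 G2/M kinases, cyclins and regulators, and 10 of the spindle, kinetochore and cytokinesis. The last 2 roles are called the 23 mitotic genes below.

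The study knocked out 1 NF-kB family member at a time and sequenced polyadenylated RNA from each clone, untreated or given lipopolysaccharide (LPS, a bacterial cell wall component that engages the receptor TLR4) at 500 ng/ml, with 6 h as the labelled time. Each of 14 clones gave 1 untreated and 1 LPS library, 28 in all. There were 3 CTR clones targeted with non-specific guide RNAs, 3 p65-/- clones, and 2 clones each of p50-/-, p52-/-, cREL-/- and RELB-/-. A clone grows from 1 edited cell, so each knockout is read through 2 or 3 clonal lines of an already transformed cell. The labels give 3 sample batches: A holds 1 clone of each knockout and no CTR, B holds CTR replicate 2 and 1 clone each of p50, p52, cREL and RELB, and C holds CTR replicates 1 and 3 with p65 replicates 2 and 3.

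A cell enters the cycle when D-type cyclins with CDK4 or CDK6 inactivate the retinoblastoma protein and so free E2F factors, which switch on genes for origin licensing and nucleotide supply. Later, a complex of MuvB proteins with MYBL2 and FOXM1 switches on the mitotic genes through the CHR element. CDKN1A and its relatives hold the kinases in check, and NF-kB is known to act on several genes of G1 entry, CCND1 and MYC among them. In RNA from a whole culture, fewer cells in a phase and less RNA per cell cannot be told apart.

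Library totals ran from 12643438 to 22122428 estimated counts. Myeloid markers were present (ELANE at 873 to 3632 TPM, the length-scaled share of transcripts on which levels are given throughout), although MPO stayed at or below 0.28 TPM. In RELB clones, RELB was at 2.48 and 5.83 TPM untreated and 11.4 and 19.3 TPM with LPS. CTR libraries read 3.80 to 14.1 and 18.4 to 26.2 TPM. REL was at 8.6 and 7.1 TPM in cREL replicate 1 and at 2.9 and 2.5 TPM in replicate 2. In CTR it read 10.4 to 14.7 TPM. With LPS, NFKB1 in p50 and NFKB2 in p52 lay below every CTR library. All were low in some libraries of other knockouts too, so they did not settle these labels. The NF-kB gene RELA checked the p65 labels: it stood at 3.20 to 8.19 TPM in p65 replicates 2 and 3 and at 23.2 to 38.3 TPM in the 22 libraries of the other genotypes. In the libraries labelled p65 replicate 1 RELA was 43.7 and 52.1 TPM, against the label. The main p65 counts, calls and medians of the 52 genes are therefore also given without that clone. The p65 values of the further gene list and of most alternative fits below include it.

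Promoter sequences are shown because the results below are given separately for the mitotic and the licensing genes. No test compared these 2 sets with each other. RefSeq promoters (GRCh38.p14, 250 bases before to 50 after the start, 300 in all) were available for 40 of the 52 genes and for 27305 symbols in total. Each was searched on both strands for the CHR element TTTGAA, for the E2F words TTTGGCGC, TTTCCCGC and TTTCGCGC, for the CCAAT box (CCAAT) and for the NF-kB kappaB site. The bases upstream of the start are shown for 3 mitotic genes called lower in a knockout below, with CHR elements and CCAAT boxes in capitals. They are CDK1 (chr10:60778161-60778330, plus strand), KIF11 (chr10:92593000-92593129, plus strand) and MKI67 (chr10:128126424-128126553, minus strand). For comparison, bases upstream of the start are shown for 2 replication genes, MCM6 (chr2:135876444-135876573, minus strand) and PCNA (chr20:5126623-5126752, minus strand), with E2F words and CCAAT boxes in capitals. The stretch is 130 bases long, and 170 for CDK1, whose CHR element begins 161 bases before its start. All are written 5′ to 3′ on the strand of the gene.
CDK1: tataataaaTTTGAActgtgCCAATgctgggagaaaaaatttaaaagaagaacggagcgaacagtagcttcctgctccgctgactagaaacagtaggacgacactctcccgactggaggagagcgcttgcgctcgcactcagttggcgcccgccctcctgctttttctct
KIF11: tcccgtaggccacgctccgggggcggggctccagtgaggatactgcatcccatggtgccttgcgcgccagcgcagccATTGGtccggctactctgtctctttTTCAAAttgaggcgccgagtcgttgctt
MKI67: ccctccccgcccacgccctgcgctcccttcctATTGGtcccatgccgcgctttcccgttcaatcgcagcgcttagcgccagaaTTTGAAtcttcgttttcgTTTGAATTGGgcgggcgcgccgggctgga
MCM6: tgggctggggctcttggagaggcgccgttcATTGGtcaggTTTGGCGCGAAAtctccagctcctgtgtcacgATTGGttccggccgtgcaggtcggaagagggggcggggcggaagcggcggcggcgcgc
PCNA: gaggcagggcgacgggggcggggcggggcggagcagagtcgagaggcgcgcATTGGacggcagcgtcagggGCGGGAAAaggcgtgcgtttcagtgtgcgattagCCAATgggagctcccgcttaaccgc

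In MKI67 the second CHR element and a CCAAT box on the other strand share letters, and in MCM6 an E2F word on each strand overlap. The CHR element stood in 6 of 10 G2/M promoters (CDK1, CCNB2, PLK1, TOP2A, MKI67 and CDC20), in 5 of 8 spindle promoters (BUB1B, MAD2L1, CENPF, KIF11 and KIF23) and in 0 of 9 licensing promoters, against 15.4% of all promoters. E2F words ran the other way, in 7 of 9 licensing promoters (CDC6, CDT1, MCM2, MCM3, MCM6, MCM7 and PCNA), in CDK1 alone of the 10 G2/M promoters and in 0 of 8 spindle promoters, against 2.79% of all. CCAAT boxes were frequent in both, with 9 of 10 G2/M and 6 of 9 licensing promoters against 35.7% of all. The kappaB site was found in 4 of the 40 promoters (MCM3, MCM7, PCNA and RRM2), near its share of 10.8% in all promoters. A matched word describes the letters of a window and is not evidence that a factor binds there.

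In level, averaged over the 28 libraries, the most abundant of the 52 were CCND3, a D-type cyclin, at 697 TPM, RRM2, the small subunit of ribonucleotide reductase, at 607 TPM and PCNA, the sliding clamp of DNA polymerase, at 583 TPM. The least abundant were CCNE1, a G1/S cyclin, at 4.18 TPM, CDKN2C, an inhibitor of CDK4 and CDK6, at 6.33 TPM and CDT1, which loads the MCM helicase, at 6.36 TPM. Between the 14 clones, each taken as the mean of its 2 libraries in log2 CPM (counts scaled to library size), the median SD of the 52 genes was 0.43, against 0.47 over all genes tested. CDC6, a licensing factor, varied least of the 52 (SD 0.25), and the kinase inhibitor CDKN1A varied most (SD 0.86), ahead of MCM2 and CCND2 (both 0.75) and UBE2C (0.74).

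**Figure D1:**
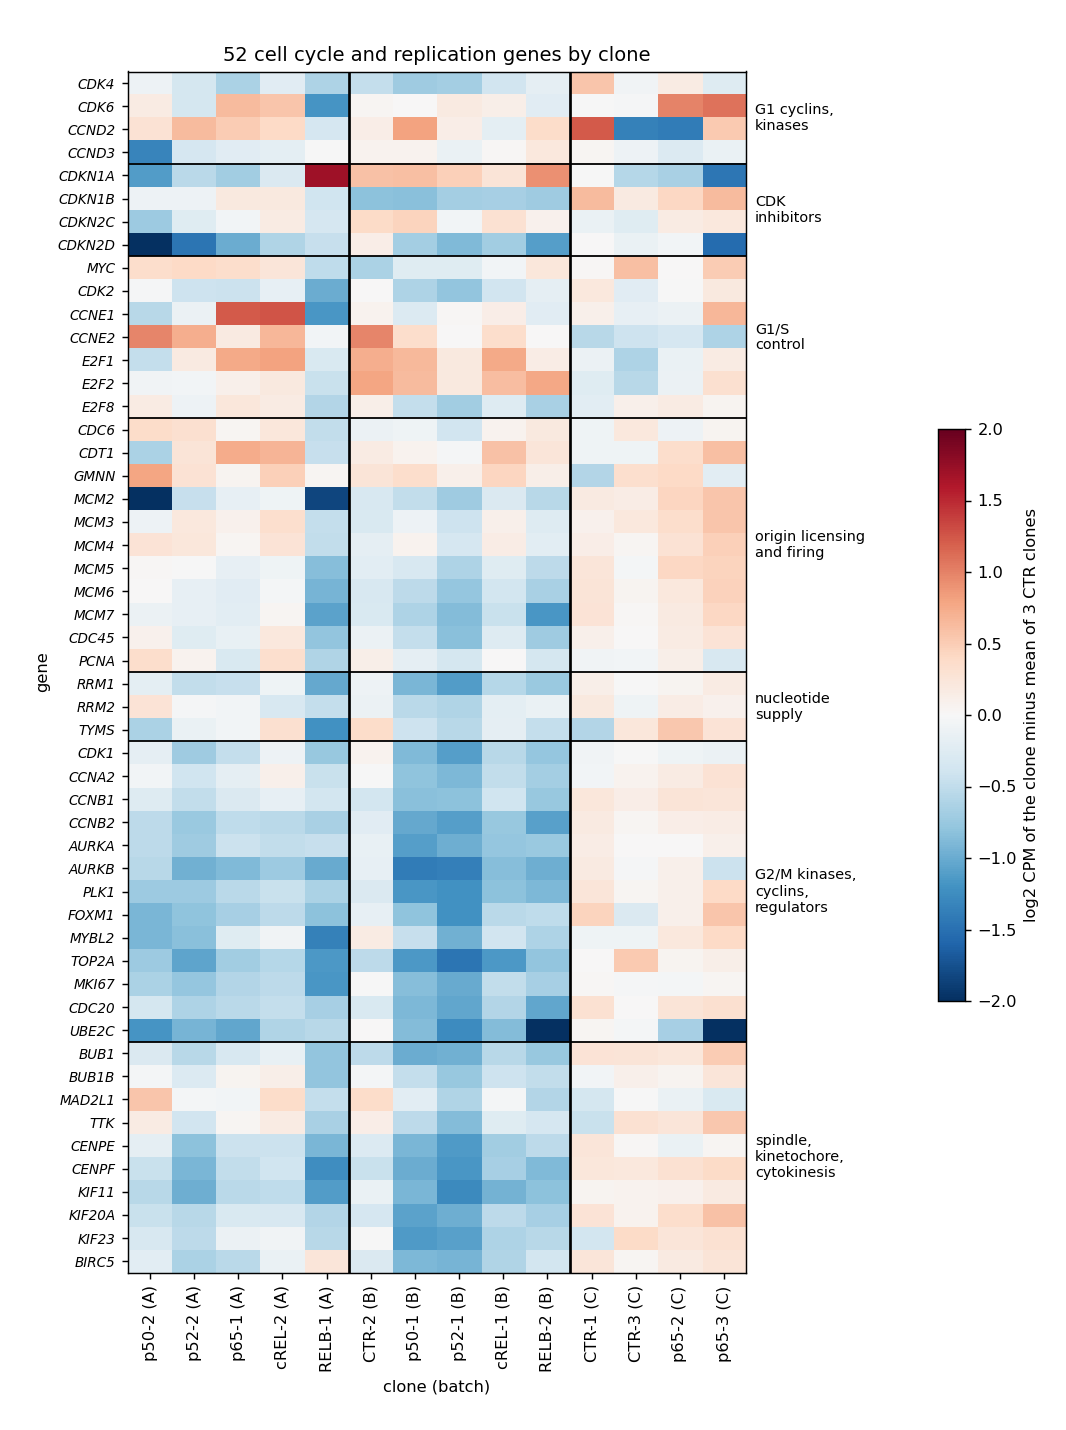
Each of the 52 genes (rows, by role) in each of the 14 clones (columns, by batch), as log2 CPM averaged over a clone's 2 libraries minus the mean of the 3 CTR clones. Colours saturate at 2 in either direction, and the lowest value is -2.52 (UBE2C in RELB replicate 2). Of the 23 mitotic rows, 19 to 23 lie below the CTR mean (blue) in each of the 9 knockout clones of batches A and B, and 5 and 4 in p65 replicates 2 and 3 of batch C; among the CTR clones the number is 7, 18 and 7.

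The first comparison asked how each knockout differed from CTR when both treatments were averaged. By edgeR's quasi-likelihood test (Benjamini-Hochberg adjusted p under 0.05), some mitotic genes were called lower in the p52 and RELB knockouts. This fit treats a clone's 2 libraries as separate samples. None of these calls was kept when each clone counted once, nor without CTR replicate 2, as given below. In p52, 6 of the 52 genes fell and 0 rose, with 0.499% of all genes called lower, and the 6 were 5 of the 13 G2/M genes and 1 of the 10 spindle genes. In RELB, 8 fell and 0 rose, with 0.999% of all genes called lower, and the 8 were 3 of the 13 G2/M genes, 2 of the 10 spindle genes, 2 of the 11 licensing genes (MCM7 and CDC45) and E2F8 of G1/S control. The p65 knockout had 1 gene higher, CDK6, and 1 lower, UBE2C, with 4.93% of all genes called in either direction. In p50 and cREL, 0 of the 52 genes were called by edgeR, with 0.183% and 0.354% of all genes called. At an unadjusted p under 0.05 the number was 16 in p50, with 12.6% of all genes, and 8 in cREL, with 11.3%. DESeq2 called 3 of the 52 in p50 and 0 in cREL, with 2.71% and 1.98% of all genes. The gene nearest to the threshold in p50 was AURKA, a centrosome kinase, at a log2 fold change of -0.62 ± 0.13 (SE, edgeR adjusted p = 0.0534). All 5 comparisons use the same CTR clones.

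The median log2 fold change of the 52 genes was -0.25 in p50, -0.39 in p52, -0.01 in p65, -0.05 in cREL and -0.47 in RELB. Over all genes tested the same medians lay between -0.05 and 0.01. By role, the median of the 13 G2/M genes was lowest in p52 (-0.65), followed by RELB (-0.51), p50 (-0.50), cREL (-0.30) and p65 (-0.16). The 11 licensing genes had a median of -0.40 in RELB, against -0.02 in p52, 0.07 in p50 and in p65, and 0.16 in cREL. RELB thus had the lowest licensing median of the knockouts, but its clones were not apart from those of p52. Relative to the CTR mean, the licensing median was -0.60 and -0.35 in RELB replicates 1 and 2. It was -0.41 in p52 replicate 1 and 0.07 in p52 replicate 2. Counted by clone, 34 of the 52 genes were lower in both RELB clones than in all 3 CTR clones, with 12.4% of all genes doing the same, and 27 in both p52 clones, with 11.4%. The number was 18 in p50 and 14 in cREL, with 10.4% of all genes in each, and 4 in the 3 p65 clones, with 6.3%.

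CDK1, the kinase that drives entry into mitosis, stood at 373, 417 and 420 TPM in the untreated CTR libraries and at 389, 451 and 369 TPM with LPS. In the p52 clones it was 189 and 248 TPM untreated and 186 and 257 TPM with LPS, and in the RELB clones 222 and 308 TPM untreated and 243 TPM in both with LPS. Every p52 and RELB library was below every CTR library. The fitted log2 fold change was -0.88 ± 0.17 (SE) in p52 (edgeR adjusted p = 0.0194) and -0.74 ± 0.16 in RELB (edgeR adjusted p = 0.0253), which is 1.84-fold and 1.67-fold lower.

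CCNB2, a B-type cyclin that partners CDK1, read 325, 270 and 323 TPM in untreated CTR libraries and 310, 294 and 273 TPM with LPS. The p52 libraries read 134 and 185 TPM untreated and 158 and 198 TPM with LPS, and the RELB libraries 189 and 193 TPM untreated and 206 and 161 TPM with LPS. Again no library of either knockout reached the lowest CTR library. Its log2 fold change was -0.65 ± 0.14 in p52 (edgeR adjusted p = 0.0315) and -0.60 ± 0.14 in RELB (edgeR adjusted p = 0.0321).

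KIF11, the kinesin that pushes the spindle poles apart, was at 44.6, 45.6 and 53.7 TPM in untreated CTR libraries and at 47.3, 49.6 and 44.4 TPM with LPS. In p52 it was 23.3 and 24.5 TPM untreated and 18.0 and 27.2 TPM with LPS, and in RELB 25.1 and 40.4 TPM untreated and 20.9 and 27.9 TPM with LPS. The RELB library nearest to CTR was untreated RELB replicate 2. The log2 fold change was -0.85 ± 0.17 in p52 (edgeR adjusted p = 0.0276) and -0.69 ± 0.17 in RELB (edgeR adjusted p = 0.0435).

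MKI67, the Ki-67 antigen that coats mitotic chromosomes, was at 22.12 to 30.6 TPM over the 6 CTR libraries, median 25.1 TPM. It was 12.02 and 18.1 TPM in untreated p52 libraries and 11.6 and 15.2 TPM with LPS, and 13.5 and 23.1 TPM in untreated RELB libraries and 13.1 and 16.9 TPM with LPS. Untreated RELB replicate 2 lay within the CTR range and the other RELB libraries below it. MKI67 fell by 0.68 ± 0.16 on the log2 scale in p52 and by 0.70 ± 0.15 in RELB (edgeR adjusted p = 0.0441 and 0.0253).

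The other genes called in p52 were TOP2A, the topoisomerase that untangles sister DNA, at -0.78 ± 0.18 (edgeR adjusted p = 0.0441), and AURKA at -0.65 ± 0.13 (edgeR adjusted p = 0.0263). Over all 10 spindle genes in p52, the median log2 fold change was -0.59, and all 10 had an unadjusted p under 0.05, as did all 13 G2/M genes, with 13.2% of all genes.

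**Figure D2:**
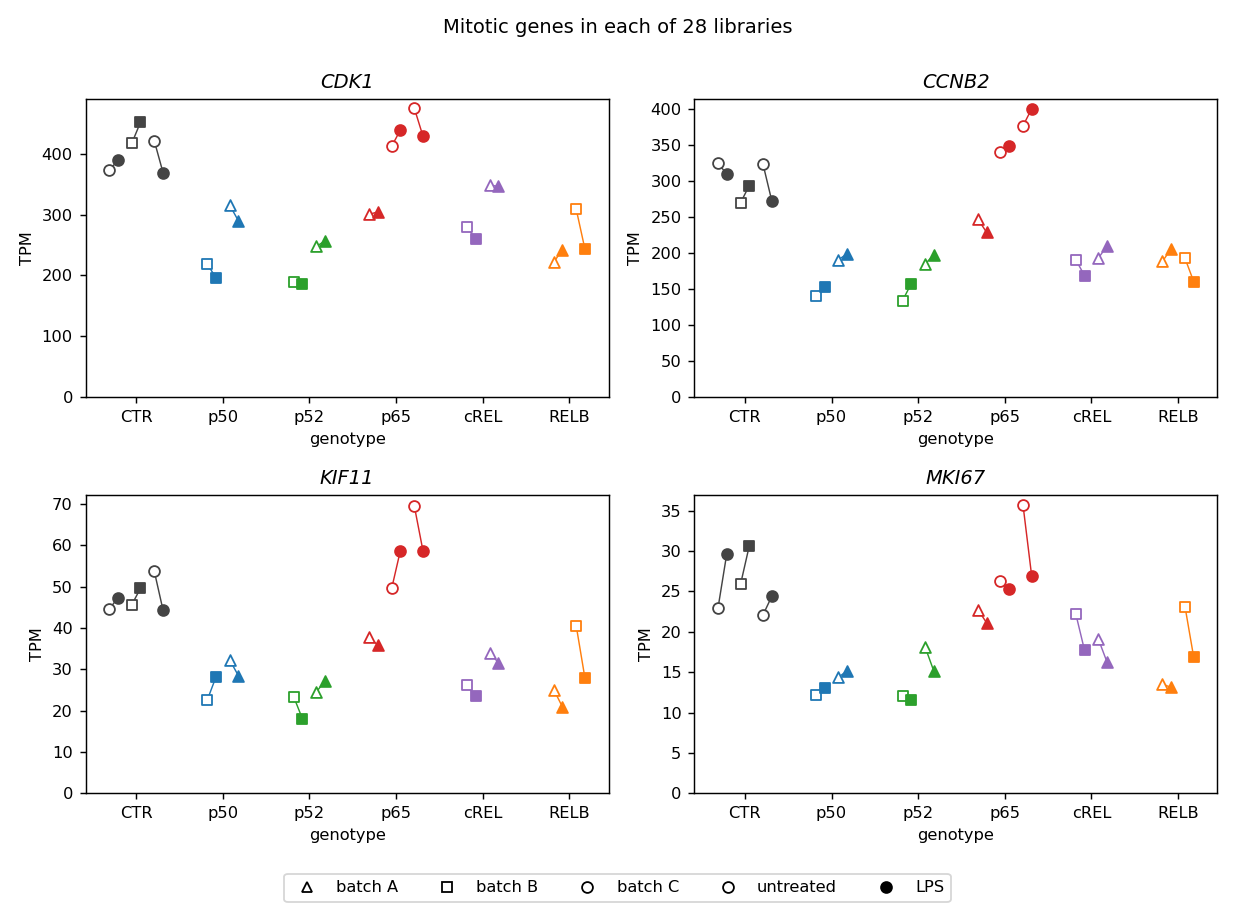
TPM (vertical axis, from 0) of CDK1, CCNB2, KIF11 and MKI67 in all 28 libraries by genotype; a line joins the untreated (open) and LPS (filled) library of a clone, and the marker shape gives the batch. For CDK1, every p52 and RELB library lies below the lowest CTR library at 369 TPM.

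The remaining genes called in RELB were MCM7, CDC45, E2F8 and the spindle gene MAD2L1. MCM7, a subunit of the replicative helicase, read 638, 470 and 583 TPM in untreated CTR libraries and 621, 548 and 530 TPM with LPS. In RELB it was 293 and 343 TPM untreated and 301 and 306 TPM with LPS, with no overlap. The log2 fold change was -0.86 ± 0.15 (edgeR adjusted p = 0.00789). The preparation does not record strand in the labels. MCM7 shares exon sequence with AP4M1, as 20 of the 52 genes do with some other gene. Reads from such a shared stretch cannot be told apart by strand.

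MAD2L1, the spindle checkpoint protein, fell by 0.84 ± 0.18 on the log2 scale in RELB (edgeR adjusted p = 0.0249). Its TPM overlapped CTR: 122 and 128 untreated and 113 and 129 with LPS, against 88.8, 208 and 160 untreated and 104, 247 and 117 with LPS in CTR. On the CPM scale, on which the fit rests, RELB libraries were at 107 to 127 and CTR libraries at 134 to 238, with no overlap. The effective length of MAD2L1, by which TPM divides, ran from 1314 to 1843 bases across libraries. E2F8, a repressor among the E2F factors, was at -0.77 ± 0.17 (edgeR adjusted p = 0.0253). CDC45, which completes the helicase at firing origins, was at -0.62 ± 0.16 (edgeR adjusted p = 0.0487).

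A further list of 115 genes of the same pathways, 113 of them tested, was counted in the same way. It was chosen with earlier results known and rests on the same clones and the same fit, so it is not separate evidence. With a clone's 2 libraries summed, edgeR called 0% of all genes in RELB and 0.00537% in p52. In RELB 20 fell and 0 rose, beside the 0.999% of all genes called lower, led by ANLN, a cytokinesis scaffold (-1.03 ± 0.15, edgeR adjusted p = 0.00477), NUSAP1, a spindle protein (-0.93 ± 0.17, edgeR adjusted p = 0.00889), and CKS1B, a small CDK subunit (-1.73 ± 0.32, edgeR adjusted p = 0.00981). In p52 12 fell and 0 rose, beside 0.499% of all genes called lower, with ANLN, NUSAP1, LIN9 (a MuvB subunit) and DLGAP5 (a spindle protein) at -0.82, -0.90, -0.91 and -0.63. In p50 and cREL edgeR called 0 of the 113, with 31 and 11 at an unadjusted p under 0.05, beside 12.6% and 11.3% of all genes, so the cREL count was below the share of all genes. In p65 it called CKS1B and RPA3 lower and RBL2 higher, 3 of the 113 beside 4.93% of all genes, which is also below it.

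The calls above treat a clone's 2 libraries as separate samples. With the counts of both libraries summed, so that each clone counted once, edgeR called 0 of the 52 genes in every knockout. Of all genes it then called 0.00537% in p50, p52 and cREL, 0.328% in p65 and 0% in RELB. The unadjusted p was under 0.05 for 18 of the 52 in p52, with 6.86% of all genes, and for 19 in RELB, with 8.61%. It was under 0.05 for 5 in p50 (6.25% of all genes), 4 in p65 (13.4%) and 2 in cREL (5.73%). Limma voom with the clone as a random effect called CDK6 and UBE2C in p65, with 1.8% of all genes, and MCM7 in RELB, with 0.392%. It called 0 of the 52 in p50, p52 and cREL, with 0.0215%, 0.0859% and 0.0376% of all genes and 14, 25 and 6 of the 52 at an unadjusted p under 0.05. For CDK1 in p52 the log2 fold change was -0.89 with clone sums, at an edgeR adjusted p of 0.647.

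Single clones also decided the p52 and RELB counts. Without CTR replicate 2 edgeR called 0 of the 52 in p52 and RELB, with 0.0217% and 0.13% of all genes called and 1 and 2 of the 52 at an unadjusted p under 0.05, and the log2 fold change of CDK1 was -0.28 in p52 and -0.13 in RELB. Without p65 replicate 1, the clone whose RELA level goes against its label and the only p65 clone of batch A, edgeR called 7 of the 52 in p50, 21 in p52, 5 in cREL and 19 in RELB, all lower, with 1.58%, 3.15%, 1.81% and 3.12% of all genes. With 1 p52 clone left, edgeR called 0 of the 52 in p52 without p52 replicate 1 (0% of all genes) and without p52 replicate 2 (0.0444%), with 15 and 27 at an unadjusted p under 0.05. The RELB count was 3 without RELB replicate 1, 13 without RELB replicate 2, 4 without p52 replicate 1 and 5 without p52 replicate 2, with 2.22%, 2.35%, 1.02% and 1.15% of all genes. Genotype and batch can be told apart only through these clones.

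The p65 results without the clone labelled p65 replicate 1 were as follows. The median log2 fold change of the 52 genes was 0.12, that of the 13 G2/M genes 0.04 and that of the 11 licensing genes 0.21. CDK6 was the 1 gene called when both treatments were averaged, with 3.01% of all genes. EdgeR called 0 of the 52 in p65 against CTR untreated (0.0108% of all genes), 0 with LPS (0.401%), 0 for LPS in p65 (0.0217%) and 0 for the difference in LPS response (0.0%). At an unadjusted p under 0.05 were 10, 3, 4, 0 and 0 of the 52 in these 5 comparisons.

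By clone, the mitotic median lay below that of every CTR clone in all 9 knockout clones of batches A and B. The median log2 difference of the 23 mitotic genes from the CTR mean was -0.90 and -0.44 in p50 replicates 1 and 2, -1.03 and -0.71 in p52, -0.59 and -0.40 in cREL, and -0.66 and -0.75 in RELB. In the clone labelled p65 replicate 1 it was -0.47. In p65 replicates 2 and 3, both of batch C, it was 0.11 and 0.25, and in CTR replicates 1 to 3 it was 0.14, -0.16 and 0.04. Of the 23 genes, those below all 3 CTR clones numbered 22 and 14 in the p50 clones, 23 and 21 in p52, 21 and 12 in cREL, 22 and 22 in RELB and 16 in p65 replicate 1, where 21.3 to 27.5% of all genes were below all 3 CTR clones. In p65 replicates 2 and 3 the number was 3 in each, with 24.1% and 28.5% of all genes. The p65 clones with low RELA had mitotic medians above 0 and the one with high RELA below, and they also differ in batch.

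Within batch B alone, 36 of the 52 genes were lower in all 4 knockout clones than in CTR replicate 2, with 24.2% of all genes doing the same, and those 36 included all 23 mitotic genes and 5 of the 11 licensing genes. Within batch C, both p65 clones were lower than both CTR clones in 4 of the 52 genes and higher in 16, against 20.5% and 21.5% of all genes. Batch A has no CTR clone and gives no such value. Across batches, 12 of the 52 genes, 11 of them mitotic, were lower in all 8 p50, p52, cREL and RELB clones than in all 3 CTR clones, against 1.78% of all genes. None of the 52 was higher in all 8, against 1.72% of all genes.

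**Figure D3:**
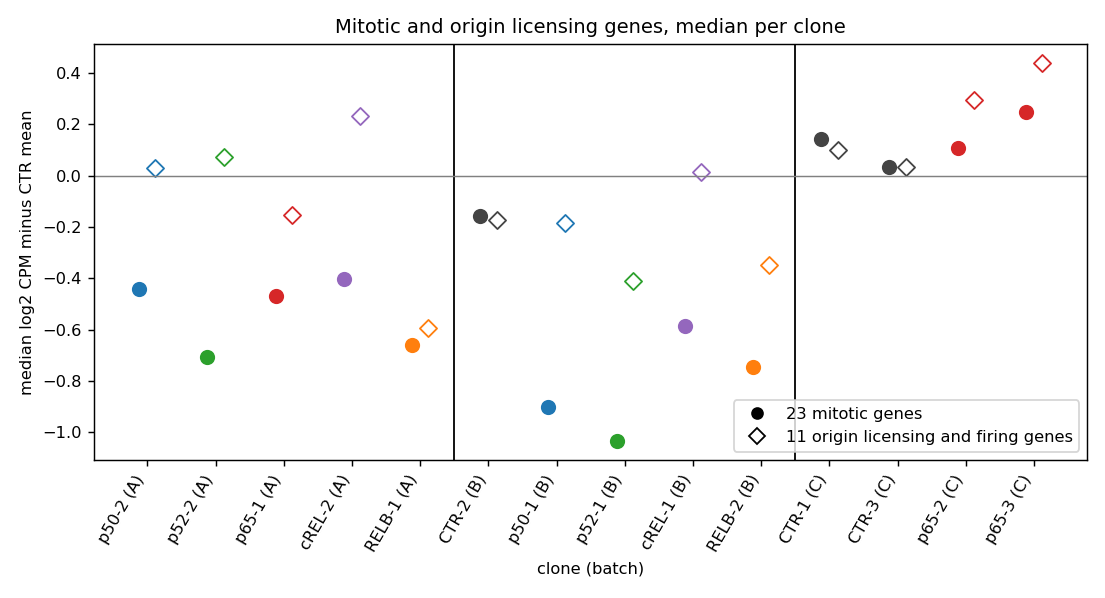
Median log2 CPM minus the CTR mean per clone, for the 23 mitotic genes (filled circles) and the 11 origin licensing and firing genes (open diamonds), with vertical lines between batches A, B and C. Mitotic medians are at or below -0.40 in the 9 knockout clones of batches A and B, and licensing medians are at or above 0.01 in 4 of those 9.

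Licensing medians lay above mitotic medians in several clones. The licensing median was 0.03 in p50 replicate 2, 0.07 in p52 replicate 2 and 0.23 in cREL replicate 2, where the mitotic medians were -0.44, -0.71 and -0.40. Those p50, p52 and cREL clones are all of batch A, which has no CTR clone. In their batch B partners, replicate 1 of each, the licensing medians were -0.18 (p50), -0.41 (p52) and 0.01 (cREL). The mitotic medians of these partners were -0.90, -1.03 and -0.59. Licensing and mitotic medians were both low in RELB replicate 1 of batch A (-0.60 licensing, -0.66 mitotic). They were also low in RELB replicate 2 of batch B (-0.35 and -0.75). Whether the licensing medians followed batch or genotype was not tested. Nucleotide supply genes were lowest in RELB replicate 1, with a median of -1.03 over RRM1, RRM2 and TYMS.

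Other measures also varied between genotypes, which are linked to batch. Many of their ranges overlapped CTR, and no test was run on them. The summed level of 12 early monocytic markers, 11 of them above 1 TPM, was 4523 to 7821 TPM in CTR libraries, 4989 to 7759 in p50, 6943 to 9933 in p52, 4277 to 9764 in p65, 7567 to 10107 in cREL and 5421 to 8289 in RELB, and MPO was at 0 in every CTR library. The summed level of 7 T and NK cell markers, nearly all of it NKG7, was 273 to 526 TPM in CTR libraries, 101 to 315 in p65 and 133 to 325 in RELB, while CD3D was at 0 in every library and 2 of the 7 markers were above 1 TPM. The share of counts in the 10 most abundant genes was 10.5 to 11.5% in CTR, 13.5 to 14.3% in p50 and 11.9 to 13.4% in p52. Their part in the differences above was not tested.

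When the 5 knockouts were averaged with equal weight, 6 genes fell and 0 rose, with 1.06% of all genes called lower. These were UBE2C, the ubiquitin-conjugating enzyme of the anaphase-promoting complex (-1.21 ± 0.30, edgeR adjusted p = 0.0483), AURKA (-0.47 ± 0.09), CDK1 (-0.55 ± 0.12), CCNB2 (-0.46 ± 0.10), MKI67 (-0.47 ± 0.11) and KIF11 (-0.51 ± 0.12). Without CTR replicate 2 edgeR called 0 of the 52 (0.0433% of all genes), with 1 at an unadjusted p under 0.05. It called 0 without p52 replicate 1 and without cREL replicate 1 as well (0.35% and 0.422%), with 17 and 19, and 3 without p50 replicate 1 (1.14%). Without p65 replicate 1 it called 14 (3.69%). Clone sums gave 0 (0.00537%), with 12 of the 52 and 8.11% of all genes at an unadjusted p under 0.05. This comparison and the next were added after the data had been seen.

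CDK6, a G1 kinase that pairs with D-type cyclins, was the 1 member that rose in a knockout by edgeR. DESeq2 called CDT1 higher in p65 as well (0.66 ± 0.22, DESeq2 adjusted p = 0.0210, with 11.2% of all genes called) and CDKN1A higher in RELB (1.20 ± 0.39, DESeq2 adjusted p = 0.0372, with 5.2% of all genes called). In p65 replicates 1 to 3 CDK6 stood at 89.96, 120.5 and 146 TPM untreated and 86.1, 116 and 132 TPM with LPS. In CTR it read 48.5, 39.6 and 44.8 TPM untreated and 45.004, 48.3 and 51.0 TPM with LPS. Every p65 library was above every CTR library, in the clone labelled p65 replicate 1 as well. The log2 fold change was 0.99 ± 0.18 (edgeR adjusted p = 0.00485), which is 1.98-fold higher. On the log2 CPM scale both cREL clones were also above all 3 CTR clones, at 0.11 and 0.55 relative to the CTR mean, and CDK6 did not pass in cREL (0.54 ± 0.23, edgeR adjusted p = 0.375).

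CDK6 stayed called without any 1 of the 14 clones. Within batch C alone its value was 1.04 (edgeR adjusted p = 0.0213), without p65 replicate 1 it was 1.08 (edgeR adjusted p = 0.0184), and with clone sums it was 0.98 (edgeR adjusted p = 0.127). Against the mean of the other 4 knockouts, CDK6 was 0.89 ± 0.18 higher on the log2 scale (edgeR adjusted p = 0.0376), the 1 gene of the 52 called there, with 0.596% of all genes called. MYBL2, a partner of MuvB, followed at 0.75 ± 0.18 without passing (edgeR adjusted p = 0.0600).

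TPM and CPM parted for CDK6 in some clones. Its effective length, the mean transcript length that Salmon used, ran from 1666 to 9150 bases across libraries, and TPM divides by it. CDK6 was at 4.65 TPM in RELB replicate 1 with LPS and at 13.6 and 13.2 TPM in p50 replicate 2. On the CPM scale p50 replicate 2 was at 0.17 relative to CTR and RELB replicate 1 at -1.18. CDK6 shares exon sequence with AC002454.1.

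UBE2C showed single clones far from their partners. CTR libraries read 137 to 187 TPM, median 166 TPM, and p65 libraries 94.7, 110 and 35.2 TPM untreated and 85.6, 102 and 52.97 TPM with LPS. All 6 p65 libraries lay below CTR, and p65 replicate 3 lay lowest. The effective length of UBE2C was 580 to 623 bases across libraries, the shortest of the 52 genes. In p65 replicate 3 UBE2C was 0.88 higher with LPS on the log2 CPM scale, as some other short genes were (given below). Whether transcript length played a part in the UBE2C values was not tested. The fitted change in p65 was -1.31 ± 0.34 (edgeR adjusted p = 0.0352). That call was lost without any 1 of 8 clones. The adjusted p was 0.130 without p65 replicate 3, 0.125 without p65 replicate 1 and 0.123 without CTR replicate 2 (edgeR). It was 0.0897 without CTR replicate 1, 0.0615 without CTR replicate 3, 0.0517 without p52 replicate 1, and 0.0586 and 0.0584 without cREL replicates 1 and 2. With clone sums it was 0.254 and within batch C alone 0.226 (edgeR). RELB replicate 2 was lower still, at 30.1 and 40.9 TPM, while RELB replicate 1 was at 121 and 108 TPM, and RELB as a whole was not called (-1.49 ± 0.44, edgeR adjusted p = 0.0988).

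MCM2, another helicase subunit, was at -2.04 on the log2 CPM scale in p50 replicate 2 and -1.84 in RELB replicate 1, against -0.70 to 0.55 in the other 12 clones. CDKN2D, an inhibitor of CDK4 and CDK6, was at -2.15 in p50 replicate 2 and -0.68 in p50 replicate 1. CCND3 was at -1.32 in p50 replicate 2 and between -0.33 and 0.22 in the other 13 clones. CCND2, another D-type cyclin, differed most among the controls themselves, at 1.23, 0.13 and -1.35 in CTR replicates 1 to 3.

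**Figure D4:**
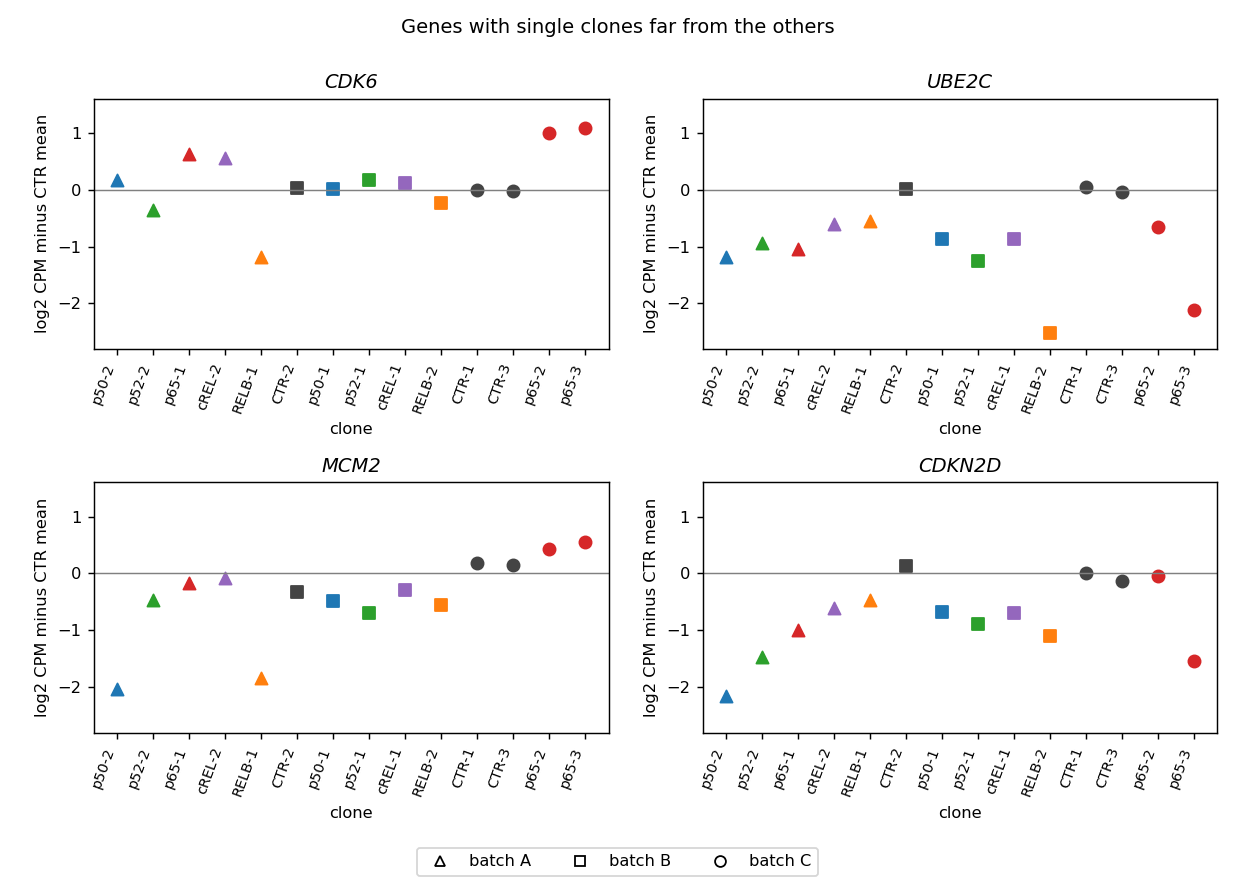
Log2 CPM minus the CTR mean for CDK6, UBE2C, MCM2 and CDKN2D in each of the 14 clones, ordered by batch (marker shape) and coloured by genotype. CDK6 is highest in the 3 p65 clones, UBE2C is at -2.52 in RELB replicate 2, and MCM2 is at or below -1.84 in p50 replicate 2 and RELB replicate 1.

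Split by treatment, edgeR called 0 of the 52 genes in each of the 10 comparisons of a knockout with CTR. For untreated libraries 0% (p50, p52, cREL), 0.0537% (p65) and 0.0107% (RELB) of all genes were called. At an unadjusted p under 0.05 were 8 of the 52 in p50, 23 in p52, 3 in p65, 5 in cREL and 23 in RELB. With LPS 0.129% (p50), 0.0698% (p52), 0.993% (p65), 0.199% (cREL) and 0.0483% (RELB) of all genes were called, and 10, 18, 6, 5 and 18 of the 52 had an unadjusted p under 0.05. For CDK1 in p52 the log2 fold change was -0.87 untreated and -0.89 with LPS.

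DESeq2 called a few of the 52 in the same split. Untreated, it called 1 in p65 and 3 in RELB, with 1.71% and 1.17% of all genes, and 0 in p50, p52 and cREL, with 0.22%, 0.333% and 0.129%. With LPS it called 1 in p50, 3 in p52, 2 in p65, 0 in cREL and 1 in RELB, with 1.27%, 1.43%, 3.49%, 1.23% and 1.16%. Without p65 replicate 1 edgeR called 6 in p52 and 8 in RELB untreated, with 0.531% and 0.758% of all genes. With LPS it then called 3 in p50, 8 in p52, 1 in cREL and 7 in RELB, with 0.726%, 1.29%, 0.623% and 0.764%.

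The other comparison asked whether LPS moved the cycle genes. In the unpaired fit 0 of the 52 genes were called when LPS was averaged over the 6 genotypes, in which 0.403% of all genes were called, and 0 in CTR alone, in which 0.408% were. CDKN1A was the 1 gene at an unadjusted p under 0.05 in each, and DESeq2 called 0 and 1, with 0.66% and 0.832% of all genes. The averaged log2 fold changes ran from -0.10 (E2F2) to 0.69 (CDKN1A), with a median of 0.00. For 51 of the 52 genes the 95% interval lay within 1 of zero on the log2 scale, and for 47 within 0.5. In the single knockouts edgeR called 0 of the 52 as well, with 0.0161% (p50), 0.0215% (p52), 0.0268% (p65), 0.0107% (cREL) and 0.129% (RELB) of all genes called. CDT1 in RELB was the 1 gene at an unadjusted p under 0.05 there. DESeq2 called 0 of the 52 in each, with 0.0537%, 0.0752%, 0.043%, 0.043% and 0.311% of all genes.

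CDKN1A (p21), the inhibitor that p53 and other pathways induce, read 27.7, 55.9 and 18.0 TPM in untreated CTR libraries and 80.8, 137 and 62.4 TPM with LPS. The log2 CPM differences within clones were 1.51, 1.26 and 1.89 in CTR, 0.85 and 1.38 in RELB, and 0.16, 1.33 and 0.42 in p65. They were -0.09 and 0.58 in p50, 0.25 and 0.45 in p52, and 0.41 and 0.46 in cREL. CDKN1A was higher with LPS in 13 of 14 clones, with the 3 CTR clones among the 5 with the largest differences. Its level was highest in RELB, at 134 and 83.4 TPM untreated and 235 and 184 TPM with LPS, above every CTR library of the same treatment. Averaged over treatments CDKN1A did not pass in RELB (1.18 ± 0.42, edgeR adjusted p = 0.165).

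In the unpaired fit the CDKN1A change was 0.69 ± 0.21 averaged over genotypes (edgeR adjusted p = 0.436) and 1.53 ± 0.44 in CTR (edgeR adjusted p = 0.296). With each clone as a replicate block, which compares a clone's LPS library with its own untreated library, it was 0.72 ± 0.09 (edgeR adjusted p = 8.79e-04) and 1.55 ± 0.20 (edgeR adjusted p = 0.00109). The differences between a knockout's LPS response and that of CTR ran from -1.32 in p50 to -0.44 in RELB in the paired fit, and 0 of the 5 passed (edgeR adjusted p of 0.301 to 0.986). A difference in CDKN1A response between a knockout and CTR was therefore not shown.

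MYC, a transcription factor that promotes G1 entry, followed in the paired fit. It read 265, 170 and 476 TPM in untreated CTR libraries and 395, 264 and 533 TPM with LPS, and 178 and 381 TPM untreated and 250 and 524 TPM with LPS in RELB. Each of these 5 clones was higher with LPS, but the spread between CTR clones exceeded the change within them. With the replicate block MYC rose by 0.24 ± 0.04 on the log2 scale averaged over genotypes (edgeR adjusted p = 0.00473), by 0.47 ± 0.09 in CTR (edgeR adjusted p = 0.00800) and by 0.58 ± 0.11 in RELB (edgeR adjusted p = 0.0171).

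In the paired fit CDKN1A and MYC were the 2 of 52 genes called in the average and in CTR, in which 0.886% and 1.27% of all genes were called. MYC was the 1 gene called in RELB, with 0.435% of all genes, and edgeR called 0 of the 52 in the LPS responses of p50, p52, p65 and cREL. Those had 0.0322%, 0.0268%, 0.0161% and 0.0215% of all genes called and 1, 1, 2 and 1 of the 52 at an unadjusted p under 0.05. The mitotic and licensing genes stayed near zero: in the unpaired average the median log2 fold change was 0.01 over the 13 G2/M genes, -0.03 over the 10 spindle genes and 0.00 over the 11 licensing genes. Of the further 113 genes tested, CDKN2B, an inhibitor of CDK4 and CDK6, rose with LPS in the unpaired average (1.00 ± 0.21, edgeR adjusted p = 0.0318).

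**Figure D5:**
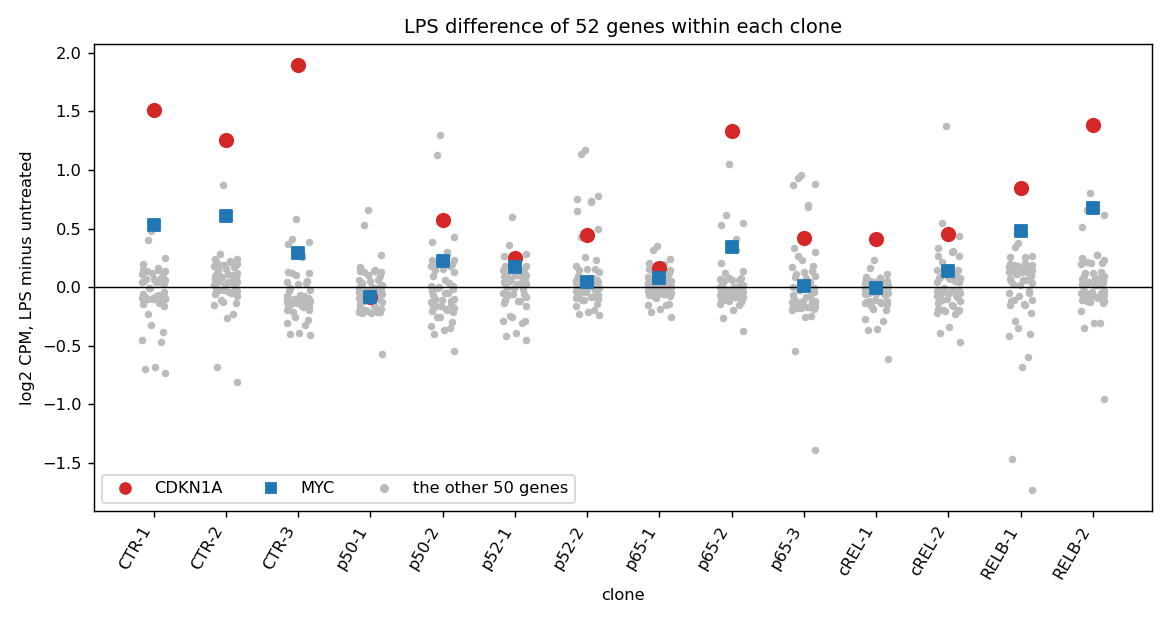
Log2 CPM with LPS minus untreated within each of the 14 clones, for CDKN1A (red circles), MYC (blue squares) and the other 50 genes (grey points, spread sideways for visibility). CDKN1A lies at 1.26 to 1.89 in the CTR clones, and the grey points centre near 0 in every clone.

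The largest other differences with LPS were seen in single clones. RELB replicate 1 had MCM2 lower by 1.73 on the log2 scale with LPS (92.1 against 28.1 TPM). The same clone had CCNE1 lower by 1.46 (2.90 against 1.11 TPM), at 0.90 CPM with LPS. P65 replicate 3 had CCNE1 lower by 1.39 (11.3 against 3.08 TPM). CDKN2D was higher by 1.37 in cREL replicate 2 (6.19 against 15.6 TPM). Both genes were near the floor, with as few as 13 (CCNE1) and 38 (CDKN2D) estimated counts in a library. In the partner clone RELB replicate 2, MCM2 was at 169 TPM untreated and 137 TPM with LPS, and on the log2 CPM scale it was 0.01 higher with LPS. A test of whether any knockout altered the LPS response called 0 of the 52 genes in each of the 5 knockouts by edgeR, in which 0.0161% of all genes were called for p65 and 0% for each of the others. CDT1 in p50 was the 1 gene at an unadjusted p under 0.05 in these 5 tests. DESeq2 called 0 of the 52 in each, with 0.0322% (p50), 0.0376% (p52), 0.102% (p65), 0.0215% (cREL) and 0.0161% (RELB) of all genes.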

How the data were processed

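RNA was sequenced from 28 libraries of 14 U937 clones. The authors deposited estimated counts per gene and TPM (transcript abundance scaled to gene length and library size). Both were made with Salmon 0.11.3 on GRCh38, per the submitters' processing notes; 41.0 to 47.5% of nonzero estimated counts were whole (within 1e-06). cDNA was amplified with oligo(dT) primers and PCR, per the labels' protocols, so intervals cover the spread between libraries only. Counts were rounded, filtered (filterByExpr, minimum count 10) and fitted with edgeR 4.0.16 (TMM, quasi-likelihood, robust, 12 groups plus batch, 14 residual degrees of freedom), with Benjamini-Hochberg adjustment over 18624 genes and a threshold of 0.05. Fold changes come from counts and levels from TPM. A clone's 2 libraries deviated together (correlations of 0.203 to 0.441, 14 of 14 clones best with their own partner), so a fit with each clone as replicate block (8 residual degrees of freedom) is given where it changes a call. Alternatives were DESeq2 1.42.0, limma 3.58.1 voom, clone sums, other scaling, filter, batch and length settings, and leaving out each clone. The code was tested on simulated data. Genes named in full were, per comparison, up to 8 called by size, or the lowest p up to 4, and others are given after their values were seen. Members and lists were chosen with earlier results of these data known. The labels do not say how separately the clones were cultured, so p-values measure only the spread between these samples.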

Additional observations from a re-analysis of the deposited data

Results flagged for a closer look

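CDK6 was singled out because p65 differed from the other 4 knockouts in a test of the difference itself: it was 0.89 higher on the log2 scale (edgeR adjusted p = 0.0376). That value was 1.07 without p65 replicate 1 (edgeR adjusted p = 0.112), 0.80 without CTR replicate 2 (edgeR adjusted p = 0.166) and 1.44 with effective lengths as an offset (edgeR adjusted p = 0.0584). The adjusted p was also above 0.05 without CTR replicate 1 (0.0635), CTR replicate 3 (0.0549), p52 replicate 2 (0.0609) or p65 replicate 3 (0.0791), with log2 values of 0.88, 0.87, 0.84 and 0.86 (edgeR), and it was 0.484 with clone sums. The cause of these shifts was not tested.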

How the results depend on the processing

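Counts of the 52 genes called moved by over 1.5 times as follows. The cause was not tested unless the setting itself removes samples. The share of all genes called moved with the setting too. DESeq2 called 2.71% in p50 and 11.2% in p65, against 0.183% and 4.93% by edgeR. Counts below without such a share describe the setting and are no result about the 52 genes. DESeq2 gave 1 for LPS in CTR, 3 in p50, 16 in p52, 15 in RELB, 4 over the untreated and 7 over the LPS comparisons of knockouts with CTR, and 4 for p65 against the other 4 knockouts. Without a filter the counts were 1 for LPS averaged, 1 for LPS in CTR, 1 over the LPS effects in the knockouts, 7 in p50, 15 in p52, 4 in p65, 1 in cREL, 18 in RELB, 10 untreated, 16 with LPS, 1 for differences in LPS response, 11 for the 5 knockouts together and 10 for p65 against the others. Without a batch term they were 3 in p50, 11 in p52, 1 in p65, 15 in RELB, 14 for the 5 together and 31 for p65 against the others. Voom with clone as a random effect gave 1 for LPS averaged, 1 for LPS in CTR, 0 in p52, 1 in RELB, 1 with LPS, 0 for the 5 together and 0 for p65 against the others. Clone sums gave 0 in p52, p65, RELB, the 5 together and p65 against the others. The replicate block gave 2 for LPS averaged, 2 for LPS in CTR and 1 over the knockouts, and changed no other count over the threshold. Effective lengths gave 0 for p65 against the others, and batch C alone gave 1 in p65.

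Leaving out each clone in turn gave 0 to 1 for LPS in CTR, 0 to 7 in p50, 0 to 21 in p52, 1 to 3 in p65, 0 to 5 in cREL, 0 to 19 in RELB, 0 to 14 untreated, 0 to 19 with LPS, 0 to 14 for the 5 together and 0 to 6 for p65 against the others; LPS averaged, LPS in the knockouts and differences in LPS response stayed at 0.

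Of 2568 values of single named genes under these settings, 2316 kept direction and side of the threshold, 155 lost the call and 91 gained it. The other 6 changed sign, all with 1 clone left out. Over the left-out clones the log2 change ran from -0.0807 to 0.72 for CDT1 and LPS in p52, from -0.0410 to 0.69 for CDKN1B and LPS in RELB, from -0.62 to 0.0730 for CCNB2 in cREL (-0.65 to 0.0129 untreated), from -0.78 to 0.0238 for PLK1 in p50 with LPS, and from -1.67 to 0.10 for MCM2 in the difference of LPS response of RELB. Each such gene was uncalled in the fit of all clones. The 5 knockouts together and p65 against the others were compared after seeing the data. Data were also simulated at the depth of these libraries, over 18624 genes. The p52 fit recovered 50% of 100 changes of 1 on the log2 scale and 96% of 100 changes of 2, and the averaged LPS fit 96% and 100%. Each simulated library was drawn independently, without clone or batch effects. These rates therefore check the code and do not give the power of the fit in these data.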
